A study of Mus musculus with 6 samples.

Results

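CpG island peaks outside promoters were the KLF3-bound regions that lay in a CpG island but not at an annotated gene start. They were taken from 3 lists of peaks, 1 for each form of KLF3, as the peaks whose detailed annotation named a CpG island and whose main annotation was not a promoter, meaning 1000 bp upstream to 100 bp downstream of a transcription start site (TSS). The rule found 620 of 14115 KLF3 peaks, 77 of 12248 ΔDL peaks and 6 of 4955 DBD peaks, which made 639 separate sites among the 22188 sites of a joint table of all peaks. Since the annotation named exons and gene ends ahead of islands, each of these peaks lay in an intron or between genes.

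The study asked which parts of the protein outside its zinc fingers direct KLF3 to its sites, by chromatin immunoprecipitation and sequencing (ChIP-seq) in mouse embryonic fibroblasts (MEFs). All cells were Klf3-/- MEFs of C57BL/6 background that carried a V5-tagged construct delivered with an MSCV retrovirus, and the endogenous gene was therefore absent in every group. The KLF3 group carried the full-length protein, the ΔDL group a full-length protein with AS in place of DL in the motif that contacts the corepressor CtBP, and the DBD group only the zinc fingers with a putative nuclear localization signal. Each construct was studied in a stable clone selected with puromycin, so a difference between constructs cannot be told apart from a difference between clones, and each antibody sample had 2 replicate peak lists. Input samples served as controls for peak calling and were not analysed here, and the peak lists hold no RNA measurement by which the fibroblast identity could be checked.

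CpG islands are stretches of DNA rich in G, C and unmethylated CpG dinucleotides that accompany most housekeeping gene promoters. Islands away from annotated starts, in gene bodies or between genes, often mark alternative or unannotated starts and regulatory elements. KLF3 belongs to the Krüppel-like factors, whose zinc fingers contact CACCC boxes and related GC-rich boxes such as CGCCC, and it represses genes by recruiting CtBP through its N-terminal domain.

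The central 150 bp of 7 sites are given below from the mm9 assembly, plus strand, because they span the range of responses described later and overlap no exon of the GENCODE vM1 annotation. Capitals mark the KLF consensus, which is ACACCC or CCACCC (the CACCC type) and ACGCCC or CCGCCC (the CGCCC type) on either strand, so that GGGCGG and GGGTGG are matches on the minus strand. Alox5ap had the highest KLF3 peak, Ncam1 held 5 matches, and Src was bound by all 3 forms. Kpna2, a member through the DBD list only, was the site most raised in ΔDL in the heights as deposited. Among sites with a height (log2 of scaled tags) of at least 8 in the higher construct H3f3a was the most lowered in ΔDL, and Krt78 and Klf13 were among the most lowered in DBD.
Alox5ap, chr5:150040654-150040803: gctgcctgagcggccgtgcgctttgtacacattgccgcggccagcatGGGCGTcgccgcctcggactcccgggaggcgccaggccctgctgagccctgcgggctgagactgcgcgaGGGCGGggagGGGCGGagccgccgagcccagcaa
Ncam1, chr9:49604844-49604993: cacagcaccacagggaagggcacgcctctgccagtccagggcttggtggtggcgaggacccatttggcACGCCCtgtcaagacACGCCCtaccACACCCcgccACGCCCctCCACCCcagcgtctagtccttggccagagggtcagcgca
Src, chr2:157283269-157283418: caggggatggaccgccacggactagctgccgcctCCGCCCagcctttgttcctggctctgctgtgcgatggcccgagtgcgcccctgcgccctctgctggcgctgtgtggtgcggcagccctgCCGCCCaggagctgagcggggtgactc
Kpna2, chr11:106874083-106874232: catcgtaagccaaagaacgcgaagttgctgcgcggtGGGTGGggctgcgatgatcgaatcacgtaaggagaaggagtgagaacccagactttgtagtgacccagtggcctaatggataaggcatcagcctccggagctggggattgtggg
H3f3a, chr1:182708362-182708511: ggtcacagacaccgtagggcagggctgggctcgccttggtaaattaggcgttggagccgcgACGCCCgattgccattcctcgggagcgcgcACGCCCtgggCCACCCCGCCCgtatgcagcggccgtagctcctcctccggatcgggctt
Krt78, chr15:101807952-101808101: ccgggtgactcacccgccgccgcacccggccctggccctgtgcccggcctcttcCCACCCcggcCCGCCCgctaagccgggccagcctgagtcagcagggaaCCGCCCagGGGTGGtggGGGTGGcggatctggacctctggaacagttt
Klf13, chr7:71082552-71082701: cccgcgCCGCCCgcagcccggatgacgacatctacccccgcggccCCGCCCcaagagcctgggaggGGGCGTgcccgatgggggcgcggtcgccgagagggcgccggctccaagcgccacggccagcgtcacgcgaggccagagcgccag
These windows held between 1 and 5 consensus matches and between 8 and 23 CpG dinucleotides each. Most matches were of the CGCCC type, in which a CpG stands in the middle of the box.

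The island label was checked against the sequence of each 401 bp peak. A G+C content of at least 50% together with an observed to expected CpG ratio of at least 0.6 was met by 558 of 620 KLF3 members (90.0%), 70 of 77 ΔDL members and 6 of 6 DBD members. The same held for 82.3% of KLF3 promoter peaks and 4.87% of the other KLF3 peaks. These values follow from the rule and describe the members only.

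The members lay close to genes in the KLF3 list. Of its 620 members 402 were in introns, 347 of them in intron 1, and 218 were intergenic. The nearest TSS was within 1000 bp for 275 members, all downstream of it, between 1000 and 2000 bp for 99, between 2000 and 10000 bp for 102, between 10000 and 100000 bp for 134, and further away for 10. They were spread over 582 nearest genes, and only 16 groups within 1 kb of each other held more than 1 member. A KLF3 promoter peak stood within 2 kb of 138 members. In a second gene annotation (GENCODE vM1), which lists more transcripts, 206 of 620 members (33.2%, 95% Wilson interval 29.6 to 37.0) sat at a transcript start by the same 1000 and 100 bp limits, against 5.21% of other KLF3 peaks outside promoters. Among members more than 2000 bp from the authors' nearest TSS the share was 75 of 246 (30.5%), against 3.16% of the other peaks at that distance.

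Full-length KLF3 had the largest share of its peaks in such islands. They made up 4.39% of KLF3 peaks (Wilson interval 4.07 to 4.74), 0.629% of ΔDL peaks (0.503 to 0.785) and 0.121% of DBD peaks (0.0555 to 0.264), where these intervals cover counting error only. In the 2 replicate lists taken alone KLF3 had shares of 3.0% and 5.43%. The ΔDL lists had 0.599% and 1.45%, and the DBD lists 0.0983% and 0.148%. No replicate of one construct overlapped the values of another. Among peaks beyond 2000 bp of a TSS the shares of the merged lists were 2.86% for KLF3, 0.268% for ΔDL and 0.105% for DBD. Means were 4.22% ± 1.72 (KLF3), 1.02% ± 0.602 (ΔDL) and 0.123% ± 0.0352 (DBD), each as SD with n = 2. In exact two-sided permutation tests each pair of constructs gave p = 0.333 (adjusted p = 0.333 over 3 pairs), the smallest that 2 lists against 2 allow, and KLF3 against the 4 other lists gave p = 0.133, again the smallest possible.

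**Figure D1:**
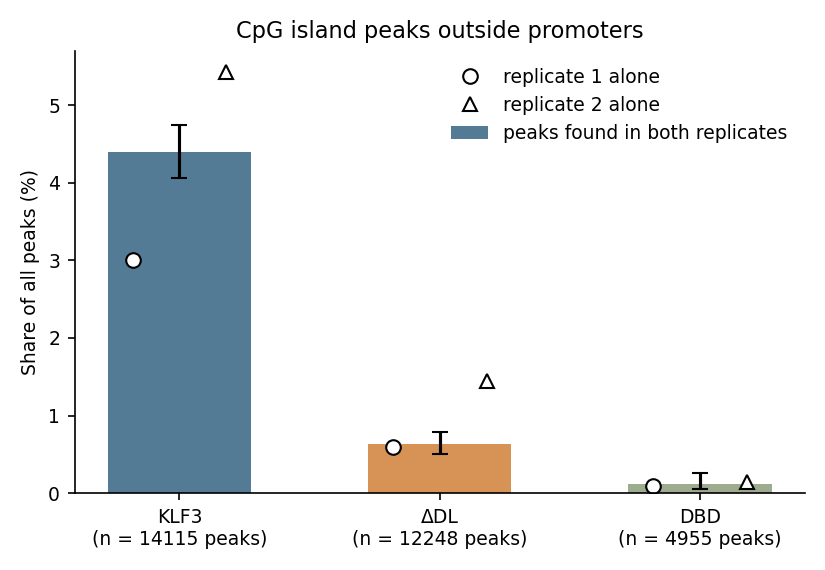
Share of all peaks that were CpG island peaks outside promoters (y axis, percent) for each construct (x axis). Bars give the peaks found in both replicates with 95% Wilson intervals, and open symbols give each replicate list alone. The KLF3 values of 3.0% to 5.43% lie above all ΔDL and DBD values.

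Base composition of the lists moved with the share, while depth did so within each pair of replicates but not across constructs. The KLF3 replicates rested on about 5460000 and 18080000 tags, the ΔDL replicates on 1770000 and 10230000, and the DBD replicates on 7810000 and 8380000, and in each pair the deeper list had the higher share. Over all peaks the median G+C content was 45.5% and 54.5% in the KLF3 lists. It was 36.8% and 42.7% in the ΔDL lists and 34.4% and 34.6% in the DBD lists. The part of depth and base composition in the difference was not tested. Promoter peaks fell along with the members: there were 6.88 promoter peaks for each member in the KLF3 list, 13.2 in the ΔDL list and 10.7 in the DBD list. In the replicate lists KLF3 had 6.67 and 5.71, ΔDL 12.3 and 11.0, and DBD 16.2 and 18.9 (exact permutation p = 0.333 for each pair).

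Height was the log2 of the tags within 400 bp of the peak centre, with both replicates combined and scaled to 100000000 tags. The combined totals were 23321370 KLF3 and 11835460 ΔDL tags, while replicate 2 had about 18080000 and 10230000. KLF3 and ΔDL heights thus lean on replicate 2 and are not even averages of both. The DBD replicates were of near equal size. The median KLF3 member reached 8.35 (326 normalized tags; quartiles 232 and 471), close to promoter peaks at 8.34 and above other KLF3 peaks at 7.65. In the ΔDL list the medians were 8.62 for members, 8.54 for promoter peaks and 7.57 for the rest. In the DBD list the 6 members had a median of 7.88, against 7.46 and 7.23. Each list holds the peaks called for its own construct, so these medians were compared within a list and not between lists.

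KLF3 members were the richest in G+C, while the intervals of median conservation overlapped between the lists. Median G+C content was 66.6% in KLF3 members, 63.3% in ΔDL members and 62.6% in DBD members, and the replicate lists gave 69.1% and 69.2%, 65.4% and 65.6%, and 64.9% and 63.4%. The KLF3 values did not overlap those of ΔDL or DBD (exact permutation p = 0.333 for each pair, the smallest possible). Median conservation, on a scale from 0 to 1, was 0.28 in KLF3 members (95% interval of the median 0.25 to 0.31), 0.22 in ΔDL members (0.18 to 0.31) and 0.34 in DBD members (0.00 to 0.61). KLF3 promoter peaks were at 0.22 (0.22 to 0.23) and other KLF3 peaks at 0.08 (0.08 to 0.09). Over 60 and up to 65% G+C the medians were 0.22 in members, 0.21 in promoter peaks and 0.28 in other peaks. Over 65 and up to 70% they were 0.30, 0.25 and 0.33 in the same order. They were 0.32, 0.33 and 0.35 up to 75%, and 0.47, 0.40 and 0.475 above 75%. Other peaks were thus above members in each band over 60% G+C. Members were highest in the lower bands, with 0.20, 0.13 and 0.07 up to 55% and 0.23, 0.18 and 0.19 up to 60%. Conservation over 0.5 was seen in 133 of 620 KLF3 members (21.5%) and in 12.4% of promoter peaks. These shares were not compared at equal G+C content.

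The KLF consensus was more frequent in members than beside them. Within 100 bp around the centre, 557 of 620 KLF3 members (89.8%, Wilson interval 87.2 to 92.0) held a match, and 38.4% of 100 bp flanks lying 400 to 500 bp away did. The flanks were also poorer in G+C, at a median of 57.0%. A match was found in 84.9% of KLF3 promoter peaks and 43.4% of the other peaks, but at equal G+C the classes drew together. With a G+C content over 60 and up to 70%, the shares were 88.4% of 335 members, 88.1% of promoter peaks and 85.1% of other peaks.

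The CGCCC type accounted for most matches in members. It was present in 509 KLF3 members (82.1%) and in 23.9% of flanks, while the CACCC type was present in 179 (28.9%) and in 19.1% of flanks, and a peak could hold both. KLF3 promoter peaks were similar, with the CACCC type in 27.0% and the CGCCC type in 76.1%. With a G+C content over 60 and up to 70% they held the CGCCC type in 81.9%. In the other KLF3 peaks outside promoters the CACCC type was in 30.0% and the CGCCC type in 18.6%. In other peaks with a G+C content over 60 and up to 70% the shares were 42.3% for the CACCC type and 67.4% for the CGCCC type, the same order as in members of that G+C content (29.3% and 79.7%). Over 70% G+C they were 23.1% and 79.1% in other peaks, and 28.3% and 88.4% in members. The ΔDL members held the consensus in 59 of 77 (76.6%, 66.0 to 84.7) and the DBD members in 6 of 6, which allows a share as low as 61.0% by the Wilson interval. Sites of other factors were rarer. The ETS box CCGGAAG occurred in 4.19% of KLF3 members and 11.2% of promoter peaks, and the AP-1 box TGACTCA in 2.26% of members and 15.5% of other peaks.

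**Figure D2:**
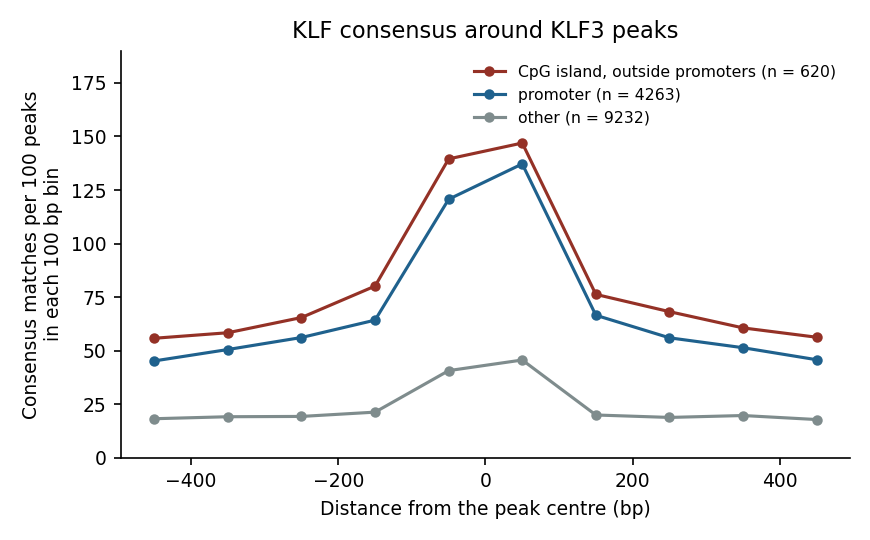
KLF consensus matches per 100 KLF3 peaks (y axis) in 100 bp bins by distance from the peak centre in bp (x axis), for CpG island peaks outside promoters (n = 620), promoter peaks (n = 4263) and other peaks (n = 9232). Members had 140 and 147 matches per 100 peaks in the central bins and 55.8 and 56.3 in the outermost bins.

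Members with more consensus matches were not much higher. The median KLF3 height was 8.31 in 63 members with no match within the central 100 bp, 8.25 in 217 with 1 match, 8.36 in 182 with 2 and 8.47 in 158 with 3 or more, and the 95% intervals of these medians overlapped between neighbours.

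The highest KLF3 members lay in introns and in regions between genes. At the site 35905 bp upstream of Alox5ap, which encodes the activating protein of 5-lipoxygenase, the replicate lists counted 70 and 177 KLF3 tags and 12 and 49 ΔDL tags, and 8 DBD tags in replicate 1 with no call in replicate 2. The combined height there was 10.86 for KLF3, against 9.95 for ΔDL and 6.85 for DBD. In intron 1 of Actb, the gene of beta-actin, 44 and 144 KLF3 tags and 13 and 29 ΔDL tags were counted, and the heights were 10.49, 9.29 and 5.22. In intron 1 of Ncam1, a neural cell adhesion molecule, the counts were 50 and 143 for KLF3 and 9 and 40 for ΔDL, with heights of 10.36, 9.43 and 6.51. DBD was not called at either of these introns. The same order of KLF3, ΔDL and DBD held at Ywhaz (10.32, 9.34 and 6.23), which encodes a 14-3-3 protein, at Aktip (10.36, 9.76 and 5.03) and near 4930578M01Rik (10.29, 9.83 and 5.98).

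In the heights as deposited, a few members were as high in ΔDL as in KLF3. Atf3, a stress-induced transcription factor, had a site 41113 bp upstream with 73 and 161 KLF3 tags, 21 and 98 ΔDL tags, and heights of 10.07 and 10.21. Intron 1 of Zbtb7a, a zinc finger repressor, had heights of 10.05 for KLF3 and 10.20 for ΔDL. Neither was called for DBD, where heights were 6.32 and 6.43. A site near 4930467E23Rik had 9.80 and 9.93, and 7.90 for DBD.

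Only 2 sites were members in all 3 lists by the joint table. Intron 22 of Map3k6, a kinase upstream in MAP kinase cascades, was the highest DBD member, with 65 and 125 KLF3 tags, 16 and 83 ΔDL tags, and 45 and 51 DBD tags. Its heights were 9.63, 9.78 and 9.19. Intron 4 of the tyrosine kinase gene Src had 57 and 100 KLF3 tags, 6 and 36 ΔDL tags, and 14 and 21 DBD tags, with heights of 9.62, 8.86 and 8.10. The other DBD members were near Rpp21, Gm1968, Kpna2 and N4bp2. At Rpp21, an RNase P subunit gene, DBD had the highest of the 3 heights as deposited (8.34, against 8.16 for KLF3 and 7.70 for ΔDL). The replicate lists called this site for DBD alone, with 30 and 16 tags.

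Height was then compared between constructs at all 639 sites. The difference ΔDL minus KLF3 had a median of -1.07 on the log2 scale (95% interval of the median -1.14 to -1.02), with a range from -4.48 to 0.95. ΔDL was at least 2-fold lower at 352 sites (55.1%), where 14.9% of all peaks were, and at least 2-fold higher at 0 sites, where 28.9% of all peaks were. It was at least 4-fold lower at 81 sites, against 2.51% of all peaks. DBD minus KLF3 had a median of -3.17 (-3.29 to -3.08). DBD was at least 2-fold lower at 635 sites, against 52.6% of all peaks, at least 4-fold lower at 589, against 43.4%, and at least 2-fold higher at 0, against 3.27%. There is 1 combined height for each construct, so these counts have no replicate error and no p. The intervals of the medians cover the spread over peaks only.

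Low tag numbers set a limit for DBD. The median site had about 5.94 DBD tags, 19 ΔDL tags and 75.5 KLF3 tags, and 115 of the 639 sites had 3 DBD tags or fewer. With these raised to a floor of 3 tags a site, the median DBD difference was -3.15. ΔDL had 17 such sites, and its median stayed at -1.07.

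Since 620 of the 639 sites were called for KLF3, part of the direction is set by the choice, and the members were therefore read beside other peaks of the KLF3 list, which were chosen in the same way. ΔDL was at least 2-fold lower at 350 of 620 members (56.5%), 1494 of 4263 promoter peaks (35.0%) and 1448 of 9232 other peaks (15.7%). The median differences were -1.08 (-1.16 to -1.04), -0.71 (-0.74 to -0.69) and -0.06 (-0.08 to -0.03). These intervals again cover the spread over peaks only, not that between replicates or clones. ΔDL was at least 2-fold higher at 0 members, 10 promoter peaks (0.235%) and 1549 other peaks (16.8%). For DBD the medians were -3.20, -3.02 and -2.17. DBD was at least 2-fold lower at 99.8% of members, 98.5% of promoter peaks and 68.9% of other peaks. In these counts promoter peaks were close to members.

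**Figure D3:**
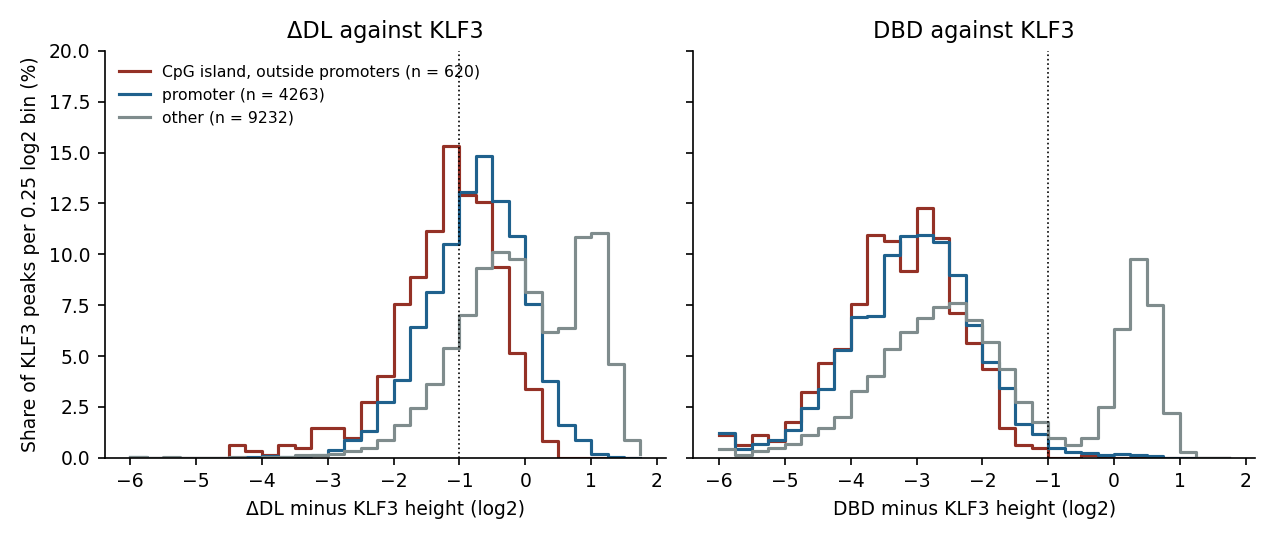
Distribution of height differences from KLF3 on the log2 scale (x axis) for ΔDL on the left and DBD on the right, as the share of KLF3 peaks in each bin of 0.25 (y axis, percent), by peak class. Values beyond the ends are in the end bins, and the dotted line marks 2-fold lower. Members lie furthest to the left for ΔDL, with a median of -1.08, while a part of the other peaks lies above 0.

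The scaling of the heights matters for these counts. When medians were set equal over 2334 peaks that all constructs share, ΔDL heights fell by 1.06 and DBD heights fell by 0.42 on the log2 scale. ΔDL was then at least 2-fold lower at 613 sites, against 43.0% of all peaks, and higher at 0, against 0.397%. Within the KLF3 list it was then lower at 97.4% of members, 88.0% of promoter peaks and 54.3% of other peaks. The gap between members and promoter peaks was thus smaller than in the heights as deposited. DBD was then lower at 637, against 53.7%, and higher at 0, against 0.428%. The highest difference from KLF3 at any of the 639 sites was then -0.11 for ΔDL and -0.24 for DBD. Sites level or raised in the heights as deposited were thus not so on this scale. With medians set equal over all 22188 peaks, the highest difference was 0.78 for ΔDL and 1.34 for DBD.

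The ΔDL difference grew with the G+C content of the peak. In KLF3 members it was at least 2-fold lower at 3 of 15 members up to 55% G+C, 18.1% over 55 and up to 60%, 43.7% up to 65%, 62.1% up to 70%, 74.4% up to 75% and 85.5% of 69 members above 75%. The median difference went from -0.61 in the lowest band to -1.54 in the highest. Promoter peaks went from 11.1% to 79.2% and other peaks from 12.1% to 86.8% over the same bands. Members stood above promoter peaks in all 6 bands, by 3.29 to 17.9 percentage points. They stood above other peaks in the lowest band and in both bands over 65 and up to 75%, where 54.0% and 60.4% of other peaks were lower. In the remaining bands other peaks were at 29.8% over 55 and up to 60%, 42.7% up to 65% and 86.8% above 75%, so that members were below them, within 1 percentage point and below them in turn. DBD differences also went down with G+C, from a median of -2.40 to -3.62 in members.

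The same bands were compared between replicates of a construct. Scores exist only for called peaks, which had at least 5 and 13 tags in the KLF3 lists and 4 and 7 in the ΔDL lists. In these scores 1 tag was worth 18.3 and 5.53 for KLF3, and 56.6 and 9.77 for ΔDL. The lowest score that could be called thus differed between replicates, and this was not corrected for. In members called in both KLF3 replicates the median of replicate 2 minus replicate 1 was -0.73 on the log2 scale in the lowest band, -0.36 in the next and between -0.33 and -0.22 in the 4 bands over 60%. In KLF3 members called in both ΔDL replicates the same difference was -0.78, -0.54, -0.42 and -1.27 in the bands from 55 to 75% G+C. These medians rest on 17, 27, 16 and 9 members, and the outer bands held 2 and 1. Over all KLF3 peaks the ΔDL replicate difference was -1.53 up to 55% G+C, from 3801 peaks. In the bands over 55% it was between -0.95 and -0.65. The KLF3 replicate difference over all KLF3 peaks was -0.84 up to 55% and between -0.43 and -0.24 over 55%. The part of G+C dependent recovery in the ΔDL libraries was not tested.

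**Figure D4:**
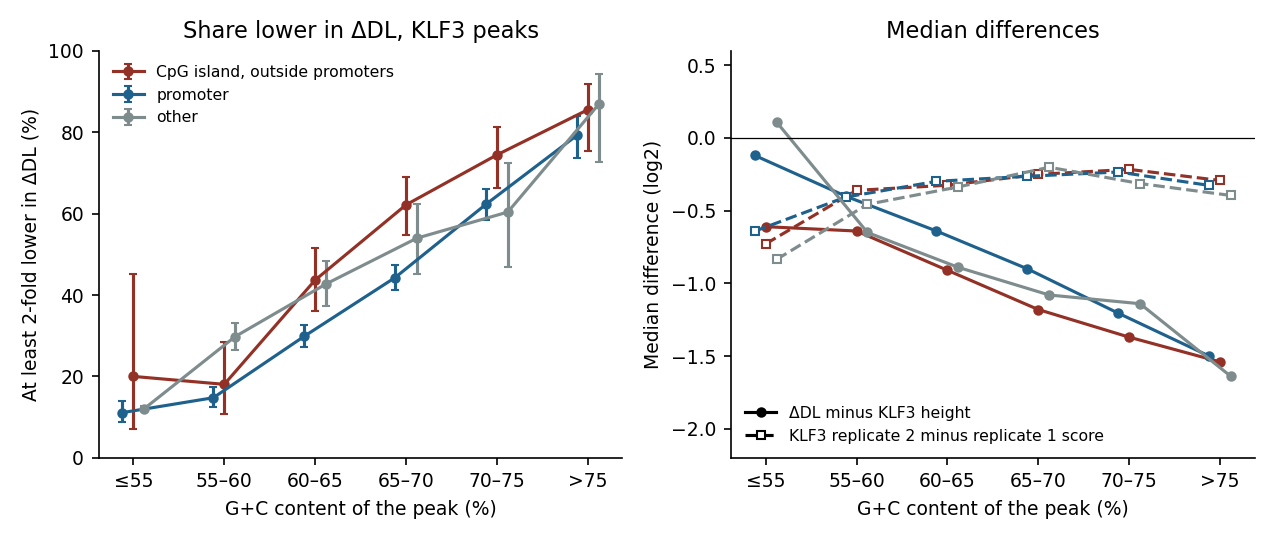
Left, share of KLF3 peaks at least 2-fold lower in ΔDL (y axis, percent, with 95% Wilson intervals) by G+C content of the peak (x axis, percent) for the 3 classes of peaks. Right, median ΔDL minus KLF3 height (filled, solid) and median KLF3 replicate 2 minus replicate 1 score (open, dashed), both log2. In members the share went from 3 of 15 to 85.5%. The replicate difference in members was -0.73 up to 55% G+C and between -0.36 and -0.22 over 55%.

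Few KLF3 members were called for the other constructs. A ΔDL peak overlapped 75 of 620 (12.1%, Wilson interval 9.76 to 14.9), and 61 of these were members in the ΔDL list too, while 33.5% of all KLF3 peaks overlapped one. Of KLF3 promoter peaks 20.5% did, and of other peaks 40.9%. A DBD peak overlapped 4 members (0.645%), against 17.0% of all KLF3 peaks and 1.17% of promoter peaks. In the other direction 62 of 77 ΔDL members (80.5%) overlapped a KLF3 peak, against 38.4% of all ΔDL peaks. By site, 559 were members in the KLF3 list alone, 16 in ΔDL alone, 2 in DBD alone, 58 in KLF3 and ΔDL, 1 in KLF3 and DBD, 1 in ΔDL and DBD, and 2 in all 3.

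The ΔDL replicates differed in how many members they called. The ΔDL replicate 2 list alone overlapped 335 of 620 KLF3 members (54.0%), against 74.6% of all KLF3 peaks, and the replicate 1 list overlapped 79 (12.7%), against 35.2%. With either list the members stood below all KLF3 peaks. The DBD replicate lists overlapped 7 and 8 members.

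The 75 members that ΔDL kept in its list were higher and less rich in G+C. Their median KLF3 height was 9.09 and their median G+C content 62.8%, against 8.27 and 67.1% for the 545 without a ΔDL call. Their median ΔDL difference was -0.42, against -1.18. A smaller fall is set in part by this split, since a call itself needs ΔDL tags. In 4 classes of KLF3 height of near equal size, from low to high, ΔDL was called at 0.645%, 7.05%, 11.5% and 29.6% of members. The median difference in these classes was -1.08, -0.995, -1.15 and -1.16. The consensus was present in 90.7% of the members with a ΔDL call and 89.7% of those without, and the ETS box in 8 of 75 (10.7%, Wilson interval 5.5 to 19.7) and 18 of 545 (3.30%, 2.10 to 5.16).

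The ΔDL difference was seen at every distance from the TSS. ΔDL was at least 2-fold lower at 57.5% of members within 1000 bp, 64.6% at 1000 to 2000 bp, 51 of 102 at 2000 to 10000 bp and 53.0% at 10000 to 100000 bp. It was lower at 234 of 402 intron members (58.2%) and 116 of 218 intergenic members (53.2%).

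The largest ΔDL fall over all 639 sites was -4.48 at Sos1, with heights of 7.82 for KLF3 and 3.34 for ΔDL, and this site was named after its values were seen. The next ones are the largest falls among sites with a height of at least 8 in the higher construct. Downstream of H3f3a, which encodes histone H3.3, the KLF3 replicates had 9 and 46 tags and no ΔDL list called the site, with heights of 8.65 for KLF3, 4.34 for ΔDL and 4.61 for DBD. Intron 1 of Elf4, an ETS factor gene, had 10 and 45 KLF3 tags and heights of 8.62, 4.67 and 5.40. Intron 2 of Mtmr4 had 8.55, 4.86 and 4.47, and a site upstream of Sipa1l3 had 8.14, 4.51 and 4.20. All 4 were below 5 for ΔDL, where a few tags decide the value, and no fold is given.

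In the heights as deposited, the largest ΔDL rises with the same height limit were small by comparison. The site 13319 bp upstream of Kpna2, an importin gene, had 50 and 67 KLF3 tags, 10 and 75 ΔDL tags, and 9 and 9 DBD tags. Its heights were 9.24, 10.19 and 7.55, a rise of 0.95 on the log2 scale. It was a member through the DBD list only, and the KLF3 list annotated its peak there as a tRNA gene (tRNA-Arg-AGG). Opa3 (0.56), Fnbp1l (0.53) and Degs1 (0.49) followed, and none of these rises reached 2-fold.

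For DBD the largest falls at that height limit were at Eea1, Ggnbp2, Krt78 and Klf13. DBD heights there were 0.49, 0.89, 3.11 and 3.38, of which the first pair is under 1 tag and the rest at 3 tags or fewer, while KLF3 heights were 8.16, 8.0, 10.12 and 9.38. In the site upstream of Krt78 the replicate lists counted 47 and 134 KLF3 tags and 6 and 35 ΔDL tags. At the same limit the smallest DBD differences were at Rpp21 (0.18), Map3k6 (-0.44), 9130401M01Rik (-1.29) and Suv420h1 (-1.47), a histone H4 methyltransferase gene.

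**Figure D5:**
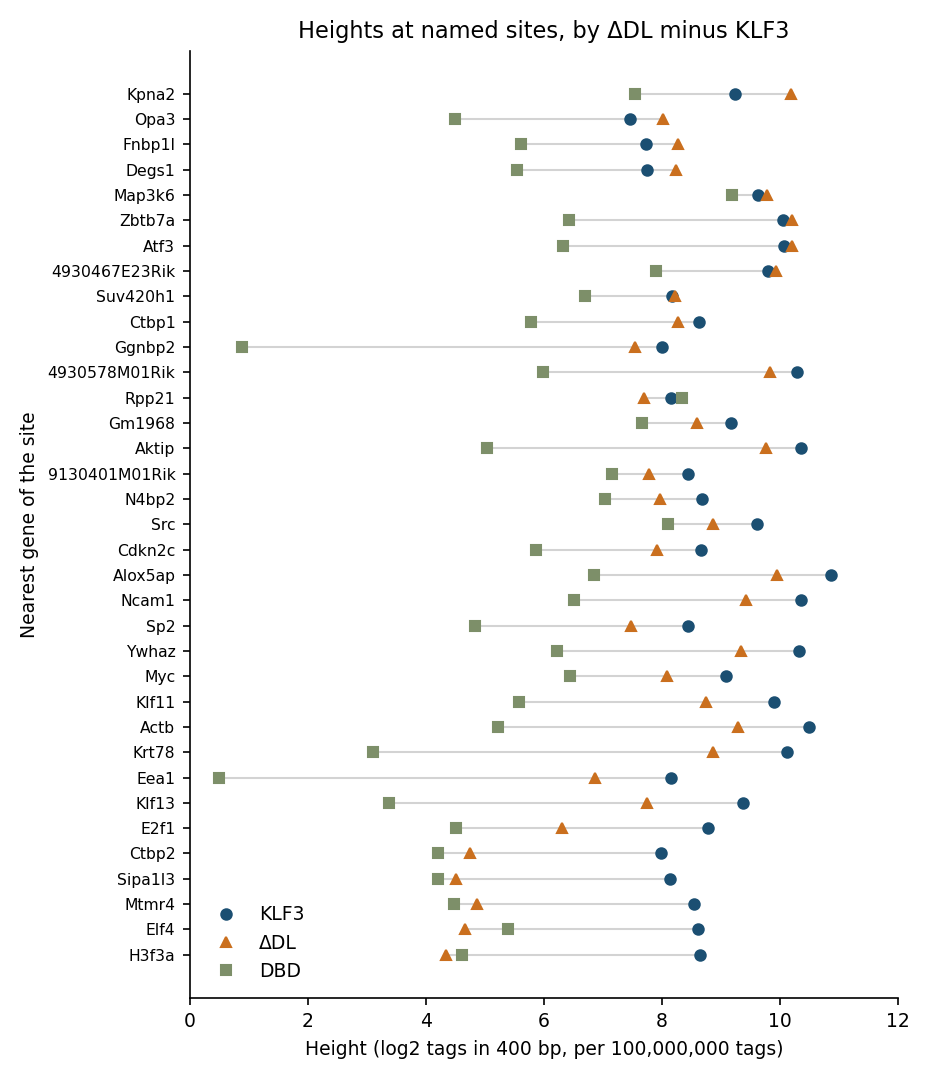
Height of KLF3, ΔDL and DBD (x axis, log2 tags in 400 bp per 100000000 tags) at named sites (y axis, nearest gene), ordered by ΔDL minus KLF3 from Kpna2 (0.95) at the top to H3f3a (-4.31) at the bottom. In these heights as deposited, DBD is the lowest of the 3 at most sites, and is highest at Rpp21.

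The counts for gene lists stand beside 55.1% of the 639 sites and 14.9% of all peaks at which ΔDL was at least 2-fold lower, and nothing particular to a list was tested. Several members belonged to the KLF and SP family itself, whose proteins bind the same boxes. There were 7 sites at 6 of the 26 listed genes, and ΔDL was at least 2-fold lower at 6 of them, with a median difference of -1.40. Klf11 intron 1 had 41 and 92 KLF3 tags and 5 and 28 ΔDL tags, with heights of 9.90, 8.75 and 5.58. Klf13 intron 1 had 19 and 72 KLF3 tags and 11 ΔDL tags in replicate 2 only, with heights of 9.38, 7.75 and 3.38. Sp2 intron 1 had 8.45, 7.47 and 4.84, and its ΔDL difference of -0.98 was the only one short of 2-fold. The remaining sites were a pair upstream of Klf9 and 1 each at Sp4 and Sp6.

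Genes of the CtBP corepressor complex held 4 sites at 4 of 18 genes, with ΔDL at least 2-fold lower at 1. The CtBP genes were among them. Intron 1 of Ctbp1 had 12 and 36 KLF3 tags and 17 ΔDL tags in replicate 2 only, with heights of 8.63, 8.27 and 5.79. Intron 1 of Ctbp2 had 12 and 26 KLF3 tags and no ΔDL call, with heights of 7.99, 4.74 and 4.20. Zfp217, a zinc finger gene, held another site.

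Genes of G1 cell cycle control held 9 sites at 9 of 26 genes, with ΔDL at least 2-fold lower at 3 and a median difference of -0.90. Intron 1 of Myc had 19 and 64 KLF3 tags and heights of 9.08, 8.09 and 6.44. Intron 1 of E2f1, which drives entry into S phase, had 18 and 41 KLF3 tags and no ΔDL call, with heights of 8.79, 6.31 and 4.51. Upstream of Cdkn2c, an inhibitor of CDK4 and CDK6, heights were 8.67, 7.91 and 5.86. The other 6 were Ccne1, Cdk6, E2f3, Mdm2, Rb1 and Trp53.

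Among the other lists, actin cytoskeleton and focal adhesion genes held 4 sites at 3 genes, Actb and Actg1 among them, with 3 lower in ΔDL. Developmental transcription factors held 4 sites, Dlx2, Foxo3 and Runx1 among them, with 1 lower. At Foxo3 the heights were 8.90 for KLF3 and 8.91 for ΔDL. WNT pathway genes held 2 sites, at Axin2 and Lef1, both lower. HOX cluster genes held 1, at Hoxc12, which was lower, and imprinted genes 1, at Nnat, which was not. No site lay nearest to a listed gene of the TGF-beta and BMP pathway or of the collagens, laminins and integrins. In all, ΔDL was at least 2-fold lower at 17 of the 32 listed sites and higher at 0. It was higher at 0 of all 639 sites, 0.235% of KLF3 promoter peaks and 28.9% of all peaks. DBD was at least 2-fold lower at all 32. The same held at 635 of the 639 sites, 98.5% of KLF3 promoter peaks and 52.6% of all peaks.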

How the data were processed

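ChIP with an antibody against V5 was sequenced for each construct, and the authors checked reads with FastQC 0.10.1, aligned them to mm9 with Bowtie2 2.0.0, used SAMtools 0.1.18, and called, merged and annotated peaks with HOMER 4.1. The deposited peak scores are tags per 100000000, a score column. The deposited heights are log2 tags in 400 bp of both replicates combined, from 23321370 KLF3 tags, 11835460 ΔDL tags and 16040240 DBD tags per the file headers. The deposited G+C and CpG contents are fractions, and conservation is a score from 0 to 1.

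Replicate scores were divided by the worth of 1 tag to give whole tags. Replicate peaks were 97 to 143 bp wide, against 401 bp in the merged lists. Overlap meant at least 1 bp. Intervals of shares are Wilson and those of medians are from ranked values, both at 95% and over peaks only. Sequences came from the mm9 reference, and the deposited G+C content was matched by it. Lists were compared by exact two-sided permutation over replicate lists. Functions were tested on simulated data. Scripts ran in Python 3.11.15 with scipy 1.17.1 for tests, pysam 0.24.0 and samtools 1.23.1 for sequence, and pandas 2.3.3 and numpy 2.4.6 for tables. The replicates share a clone, so p-values measure only the spread between these lists.

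The sites named were the 6 highest of each list, members of all 3 lists, the 4 largest rises and falls with a height of at least 8 in the higher construct, and up to 3 highest per gene list. The members and the 10 gene lists were chosen with earlier results of these data known. Some genes that the rule names are not reported here. Input samples were not used here.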

Additional observations from a re-analysis of the deposited data

How the results depend on the processing

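Of 57 alternative values, 34 moved by less than the spread between replicates, their interval or 1.5 times, and 23 moved further. Only the median height differences have a sign that could change, and none of them changed direction. The replicate lists alone gave shares of 3.0% to 5.43% for KLF3, 0.599% to 1.45% for ΔDL and 0.0983% to 0.148% for DBD. They gave overlaps of KLF3 members with ΔDL of 79 to 335 and with DBD of 7 to 8, median G+C of 69.1% to 69.2% for KLF3, 65.4% to 65.6% for ΔDL and 63.4% to 64.9% for DBD, and median conservation of 0.265 to 0.320 for KLF3, 0.230 to 0.240 for ΔDL and 0.25 to 0.53 for DBD. Replicate peaks were narrower, so their G+C is that of the peak centre. The median height difference was -2.13 (ΔDL) and -3.59 (DBD) when scaled to shared peaks, and -1.24 and -2.01 when scaled to all peaks. Past 2000 bp of a TSS it was -1.01 for ΔDL, median G+C was 66.3% for KLF3 members, and conservation was 0.190 for ΔDL members. The count lower in ΔDL was 81 at 4-fold and 613 when scaled to shared peaks. Within 200 bp the consensus was in 97.4% of KLF3 and 94.8% of ΔDL members, as a wider window must hold at least as many. The cause of the other shifts was not tested. No paired analysis was possible because the heights are single values per construct and the numbers of the replicate lists tie no library of one construct to a library of another. The ΔDL and DBD heights rest on few tags at these sites, and the part of depth in this was not tested. Combined totals were 23321370 KLF3, 11835460 ΔDL and 16040240 DBD tags, against 75.5, 19 and 5.94 at the median site.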
